A study of Mus musculus with 12 samples.

Results

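Proteins of the Bcl2 family set whether the outer membrane of the mitochondria stays intact or opens and commits the cell to die. The prosurvival members Bcl2, Bcl2l1 (Bcl-xL), Mcl1 and Bcl2a1 (A1) hold the pore-forming members Bax and Bak1 in check, and the BH3-only members Bcl2l11 (Bim), Bbc3 (Puma) and Pmaip1 (Noxa) bind the prosurvival proteins and lift that hold. In CD8 T cells, interleukin 7 sustains Bcl2, antigen receptor signals through NF-kB induce A1, and Bim drives the death of many cells once antigen or cytokine is withdrawn. The genes described here were 10 members of this family, chosen by name out of the 32285 genes that the count files list: 5 prosurvival genes with both A1 copies Bcl2a1b and Bcl2a1d, 3 BH3-only genes, and Bax and Bak1. All 10 had UMIs in every library, and all 10 passed the filter on low counts in each comparison.

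The cells were CD8 T cells of female, prediabetic NOD/ShiLtJ mice aged 10 to 15 wk, a strain with spontaneous autoimmune diabetes, with no other allele or treatment named. They were sorted as CD45.1+CD8+ and negative for CD4, B220 and CD11b, with or without binding of a Kd tetramer that carries NRP-V7, a mimotope of a peptide of the islet antigen IGRP. Islet cells without tetramer binding (islet IGRP−), islet cells with it (islet IGRP+) and spleen cells with it (spleen IGRP+) were each sequenced in 2 rounds, which gave 6 libraries of 5′ single-cell RNA and 6 of T cell receptors (TCRs). Each round was 1 pool of 10 mice that gave both islets and spleens, so n = 2 pools per group and the libraries of a round share mice. Islets were digested with collagenase and kept warm in medium, whereas spleens were dispersed mechanically and enriched for CD8 cells with beads, and the paper adds that the sequenced spleen cells were gated as CD44+, which the sample labels do not state. Tissue, preparation and this gate therefore cannot be told apart.

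Cells with under 5% mitochondrial UMIs and 200 to 3500 genes (islet) or 200 to 2000 genes (spleen) were kept, 24117 of 26818 (89.9%). In Rounds 1 and 2 these were 6429 and 8932 islet IGRP− cells, 1204 and 1598 islet IGRP+ cells, and 3524 and 2430 spleen IGRP+ cells. Library depth over these cells was 29153324 and 40469961 UMIs in islet IGRP− cells, 5880696 and 7980997 in islet IGRP+ cells, and 9607921 and 6907642 in spleen IGRP+ cells. All 5 of 5 CD8 T cell markers were present in each library, at a summed 4042 to 5616 CPM (UMIs scaled by the library's total) with Cd3e the most abundant, while Cd4 was at or near 0. The list of 13 exocrine markers summed to 148 and 497 CPM in islet IGRP− cells and to 63.9 and 183 CPM in islet IGRP+ cells, with Ctrb1, Cela1 or Prss2 on top, against 5.62 and 6.51 CPM in spleen with 11 of the 13 at 0. Endocrine markers reached 137 CPM in islet IGRP− cells of Round 1, of which Ppy alone made 133, and at most 14.0 CPM elsewhere. Myeloid markers summed to 172 to 227 CPM, most of it Cst3, B cell markers to 61.5 to 127 CPM, stromal and endothelial markers to 4.08 to 21.5 CPM, and NK and erythroid markers to at most 1.01 CPM. Cells were left out for at least 5% of UMIs in exocrine markers, 3 myeloid or 3 B cell marker UMIs, or 1 Cd4 UMI. This changed no member call between groups. Endocrine, stromal, endothelial, NK and erythroid markers were not used to leave out cells. Pairs of libraries shared 2 to 64 kept cell barcodes, and 0 of these carried the same clone in both.

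Bcl2, the founding prosurvival gene, was high in spleen and low in islets. It reached 226 and 171 CPM in spleen IGRP+ cells of Rounds 1 and 2, 71.9 and 54.9 CPM in islet IGRP− cells, and 39.5 and 31.3 CPM in islet IGRP+ cells. Both spleen libraries lay above all 4 islet libraries, both islet IGRP− libraries lay above both islet IGRP+ libraries, and no groups overlapped. Mean levels were 198 ± 38.9, 63.4 ± 12.0 and 35.4 ± 5.75 CPM (SD, n = 2). In islet IGRP+ against spleen IGRP+ cells Bcl2 was lower by edgeR's quasi-likelihood test, with a log2 fold change of −2.40 ± 0.34 (SE, adjusted p = 0.00732). Against islet IGRP− cells the log2 fold change was −0.84 ± 0.33 (adjusted p = 0.271), which did not pass, and with the round as a block, which removes what the libraries of a round share, it was −0.84 ± 0.12 (adjusted p = 0.000235).

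Bcl2l1 encodes the long prosurvival form Bcl-xL, which activation induces in T cells, and was the prosurvival gene with the fewest UMIs. Levels were 12.6 and 15.8 CPM in islet IGRP− cells, 18.7 and 21.7 CPM in islet IGRP+ cells, and 11.2 and 9.55 CPM in spleen IGRP+ cells. Islet IGRP+ libraries were the highest and spleen libraries the lowest, without overlap (20.2 ± 2.10, 14.2 ± 2.22 and 10.4 ± 1.19 CPM from high to low). The log2 fold change of islet IGRP+ against spleen IGRP+ cells was 1.03 ± 0.22 (adjusted p = 0.0227). That call was lost without the islet IGRP+ library of Round 1 (adjusted p = 0.0707) or Round 2 (adjusted p = 0.0642) and without the spleen library of Round 2 (adjusted p = 0.107). Against islet IGRP− cells the log2 fold change was 0.51 ± 0.21 (adjusted p = 0.297), and 0.50 ± 0.16 with the round as a block (adjusted p = 0.0298).

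Mcl1, a short-lived prosurvival protein that T cells need at every stage, varied between rounds more than between groups. It was at 143 and 422 CPM in islet IGRP− cells, 78.7 and 291 CPM in islet IGRP+ cells, and 106 and 333 CPM in spleen IGRP+ cells. Round 2 stood above Round 1 in each group, by 2.96, 3.70 and 3.15 times, so that all 3 groups overlapped. Among all 11277 genes tested, 5.73%, 11.4% and 8.37% moved by over 1 on the log2 scale between rounds in these groups. Round 2 was sequenced with longer reads, and the part of read length in this gap was not tested. Within each round islet IGRP+ cells had the lowest Mcl1, and with the round as a block the log2 fold change against islet IGRP− cells was −0.69 ± 0.12 (adjusted p = 0.000925), in place of −0.65 ± 0.75 (adjusted p = 0.688) without it. Leaving out 1 library turned the unblocked value, to 0.24 without the islet IGRP− library of Round 2. For islet IGRP+ against spleen IGRP+ cells it was −0.15 ± 0.75 (adjusted p = 0.908), and 0.71 without the spleen library of Round 2.

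Bcl2a1b and Bcl2a1d are near-identical copies of A1, so the split of reads between them is uncertain and their sum is given beside each. Bcl2a1b was at 256 and 318 CPM in islet IGRP− cells, 281 and 451 CPM in islet IGRP+ cells, and 105 and 121 CPM in spleen IGRP+ cells. All 4 islet libraries lay above both spleen libraries, and the islet groups overlapped (287 ± 44.2 and 366 ± 120 CPM, with 113 ± 11.1 CPM in spleen). Islet IGRP+ cells were higher than spleen IGRP+ cells by a log2 fold change of 1.77 ± 0.21 (adjusted p = 0.00458). The contrast of islet IGRP+ with islet IGRP− cells gave 0.33 ± 0.20 (adjusted p = 0.431), and the block did not bring it past the threshold (adjusted p = 0.0749).

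Bcl2a1d read 69.7 and 214 CPM in islet IGRP− cells, 104 and 343 CPM in islet IGRP+ cells, and 29.8 and 52.0 CPM in spleen IGRP+ cells. Its islet groups overlapped, both spleen libraries were the lowest, and Round 2 exceeded Round 1 by 3.07, 3.31 and 1.75 times. As for Mcl1, the part of read length in this gap was not tested. Against spleen the log2 fold change of islet IGRP+ cells was 2.52 ± 0.67 (adjusted p = 0.0396). This call was lost without the islet IGRP+ library of Round 2 (log2 fold change 1.60, adjusted p = 0.134), the spleen library of Round 1 (adjusted p = 0.170) or that of Round 2 (adjusted p = 0.134), and with library totals as the scaling (adjusted p = 0.0764). Between the islet groups the unblocked log2 fold change was 0.62 ± 0.63 (adjusted p = 0.642). It became −0.30 without the islet IGRP+ library of Round 2, a refit that sets Round 1 alone against both rounds of islet IGRP− cells. Within each round islet IGRP+ cells had the higher Bcl2a1d. With the round as a block the log2 fold change was 0.63 ± 0.17 (adjusted p = 0.0159).

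The summed A1 copies, Bcl2a1a included, reached 326 and 534 CPM in islet IGRP− cells, 384 and 796 CPM in islet IGRP+ cells, and 135 and 173 CPM in spleen IGRP+ cells. Spleen was the lowest group without overlap, and the sum differed from it by a log2 fold change of 2.01 ± 0.34 (adjusted p = 0.0111) in islet IGRP+ cells. Between the islet groups the sum did not pass, at 0.43 ± 0.33 (adjusted p = 0.523), or 0.41 ± 0.15 with the round as a block (adjusted p = 0.0509). Bcl2a1b held 78.3% and 59.6% of the A1 UMIs in islet IGRP− cells, 73.0% and 56.6% in islet IGRP+ cells, and 77.9% and 69.7% in spleen. Its share was the smaller in Round 2 in each group.

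Bcl2l11 encodes Bim, the BH3-only protein that binds every prosurvival member, and its order across groups was not that of Bcl2. Levels were 144 and 146 CPM in islet IGRP− cells, 59.5 and 89.6 CPM in islet IGRP+ cells, and 20.8 and 20.7 CPM in spleen IGRP+ cells. The groups did not overlap, and the spread between rounds was widest in islet IGRP+ cells (145 ± 1.08, 74.6 ± 21.3 and 20.8 ± 0.0809 CPM). Islet IGRP+ cells were higher than spleen IGRP+ cells, with a log2 fold change of 1.91 ± 0.19 (adjusted p = 0.00317). Compared with islet IGRP− cells their log2 fold change was −0.98 ± 0.18 (adjusted p = 0.0809), just short of the threshold. It passed with the round as a block (−0.98 ± 0.14, adjusted p = 0.000197), by DESeq2's Wald test (−0.95, adjusted p = 0.00119) and with no filter on low counts (adjusted p = 0.00629). As a ratio of UMIs within each library, Bcl2 to Bcl2l11 was 0.498 and 0.376 in islet IGRP− cells, 0.663 and 0.350 in islet IGRP+ cells, and 10.8 and 8.25 in spleen IGRP+ cells. The islet groups overlapped in this ratio and spleen stood far above them; 5′ UMI counts do not scale with transcript length, but they may capture genes unequally.

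Bbc3, the p53 target Puma, was at 13.9 and 13.2 CPM in islet IGRP− cells, 5.95 and 10.0 CPM in islet IGRP+ cells, and 19.5 and 24.8 CPM in spleen IGRP+ cells. Spleen was highest and islet IGRP+ lowest, with no overlap (22.1 ± 3.74, 13.6 ± 0.458 and 7.99 ± 2.88 CPM). The log2 fold change of islet IGRP+ against spleen IGRP+ cells was −1.37 ± 0.23 (adjusted p = 0.0104), a call lost without the spleen library of Round 2 (adjusted p = 0.0600). Against islet IGRP− cells it was −0.78 ± 0.22 (adjusted p = 0.170), and −0.75 ± 0.18 with the round as a block (adjusted p = 0.00811).

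Pmaip1, the BH3-only gene of Noxa that opposes Mcl1 and A1, differed least across groups among the BH3-only genes. It read 52.0 and 46.4 CPM in islet IGRP− cells, 56.3 and 49.4 CPM in islet IGRP+ cells, and 43.5 and 36.8 CPM in spleen IGRP+ cells. The islet groups overlapped, and both spleen libraries lay below all islet libraries (49.2 ± 4.02, 52.8 ± 4.89 and 40.1 ± 4.76 CPM). For islet IGRP+ against spleen IGRP+ cells the log2 fold change was 0.48 ± 0.25 (adjusted p = 0.199), and 0.49 ± 0.12 with the round as a block (adjusted p = 0.00446). Against islet IGRP− cells it was 0.11 ± 0.25 (adjusted p = 0.858), and −0.11 without the islet IGRP+ library of Round 1.

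Bax, a cytosolic pore former that moves to mitochondria, was at 159 and 151 CPM in islet IGRP− cells, 234 and 207 CPM in islet IGRP+ cells, and 203 and 201 CPM in spleen IGRP+ cells. Islet IGRP− libraries were the lowest, and islet IGRP+ and spleen libraries were neighbours (155 ± 5.69, 221 ± 19.6 and 202 ± 1.18 CPM). The islet groups differed by a log2 fold change of 0.52 ± 0.21 (adjusted p = 0.287), or 0.51 ± 0.11 with the round as a block (adjusted p = 0.00517). Islet IGRP+ against spleen IGRP+ gave 0.23 ± 0.21 (adjusted p = 0.465), and −0.00890 without the islet IGRP+ library of Round 1.

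Bak1, the pore former that sits in the mitochondrial membrane, was at 44.4 and 38.2 CPM in islet IGRP− cells, 62.2 and 58.6 CPM in islet IGRP+ cells, and 32.3 and 42.9 CPM in spleen IGRP+ cells. Islet IGRP+ libraries lay above all others, while islet IGRP− and spleen overlapped (60.4 ± 2.54, 41.3 ± 4.38 and 37.6 ± 7.49 CPM). The log2 fold change against spleen was 0.80 ± 0.20 (adjusted p = 0.0317). This call was lost with library totals (adjusted p = 0.0597) and without the islet IGRP− library of Round 1 (0.0513 as adjusted p), the islet IGRP+ library of Round 1 (0.121), or the spleen library of Round 1 (0.156) or Round 2 (0.116). Against islet IGRP− cells it was 0.55 ± 0.19 (adjusted p = 0.233), and 0.55 ± 0.13 with the round as a block (adjusted p = 0.00784).

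**Figure D1:**
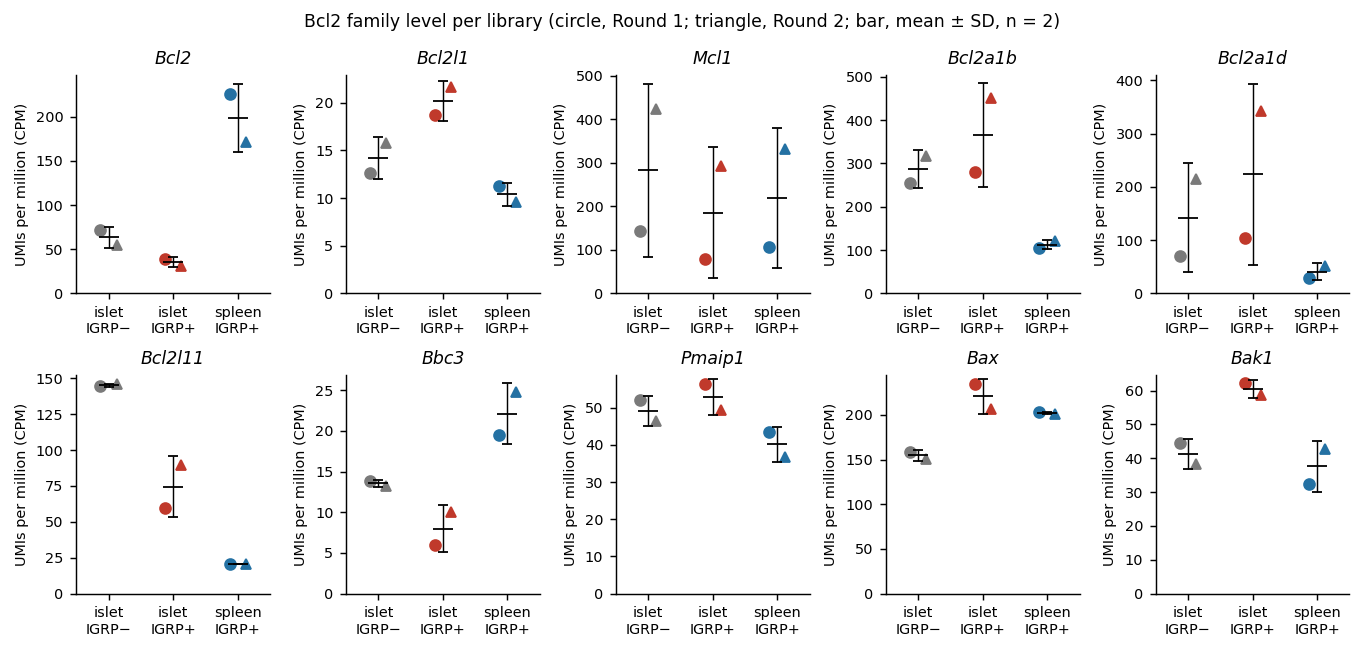
Level of each member in CPM (vertical axis) in the 6 libraries by group (horizontal axis); circles are Round 1, triangles Round 2, and bars the mean ± SD of n = 2. Bcl2 was highest in spleen (226 and 171 CPM), Bcl2l11 in islet IGRP− cells (144 and 146 CPM), and Mcl1 and Bcl2a1d were higher in Round 2 in every group.

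Over the family, islet IGRP+ against spleen IGRP+ cells gave 7 of 10 members past the threshold. Of these, 5 were higher in islet (Bcl2l1, Bcl2l11, Bcl2a1b, Bcl2a1d and Bak1), where 13.7% of all genes tested were higher, and 2 were lower (Bcl2 and Bbc3), where 12.9% were lower. The median log2 fold change of the members was 0.64, against −0.0316 for all 11277 genes. Blocking by round gave 6 higher and 2 lower members, with Pmaip1 added, beside 28% and 27.1% of all genes. With library totals in place of the trimmed mean (TMM) scaling, Bcl2a1d and Bak1 no longer passed and no member turned. That scaling moved the median of all genes by −0.0922 log2. The count of genes past the threshold was 3004 with all libraries, 1672 and 1891 in refits without the islet IGRP+ library of Round 1 or Round 2, and 967 and 892 in refits without that of spleen; 3 members passed without spleen Round 2.

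In islet IGRP+ against islet IGRP− cells, 0 of 10 members passed edgeR's test, beside 0.151% of genes higher and 1.04% lower. At unadjusted p under 0.05 there were 4 members (Bcl2, Bcl2l11, Bak1 and Bbc3) of 1982 genes, and DESeq2 called 1 (Bcl2l11). With the round as a block, 4 members were higher (Bcl2l1, Bcl2a1d, whose sum with the other A1 copies did not pass, Bax and Bak1) and 4 lower (Bcl2, Bcl2l11, Mcl1 and Bbc3), where 14.4% of all genes were higher and 16.1% lower. The block raised the count of genes past the threshold from 134 to 3442, and the share of them that were higher from 12.7% to 47.2%. Unblocked, edgeR called 0 genes without the islet IGRP+ library of Round 1 or Round 2 (1251 and 2524 at unadjusted p under 0.05), 5 and 10 without those of islet IGRP−, and 30 and 28 without those of spleen. Both contrasts use the same islet IGRP+ libraries, so their values are not independent.

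**Figure D2:**
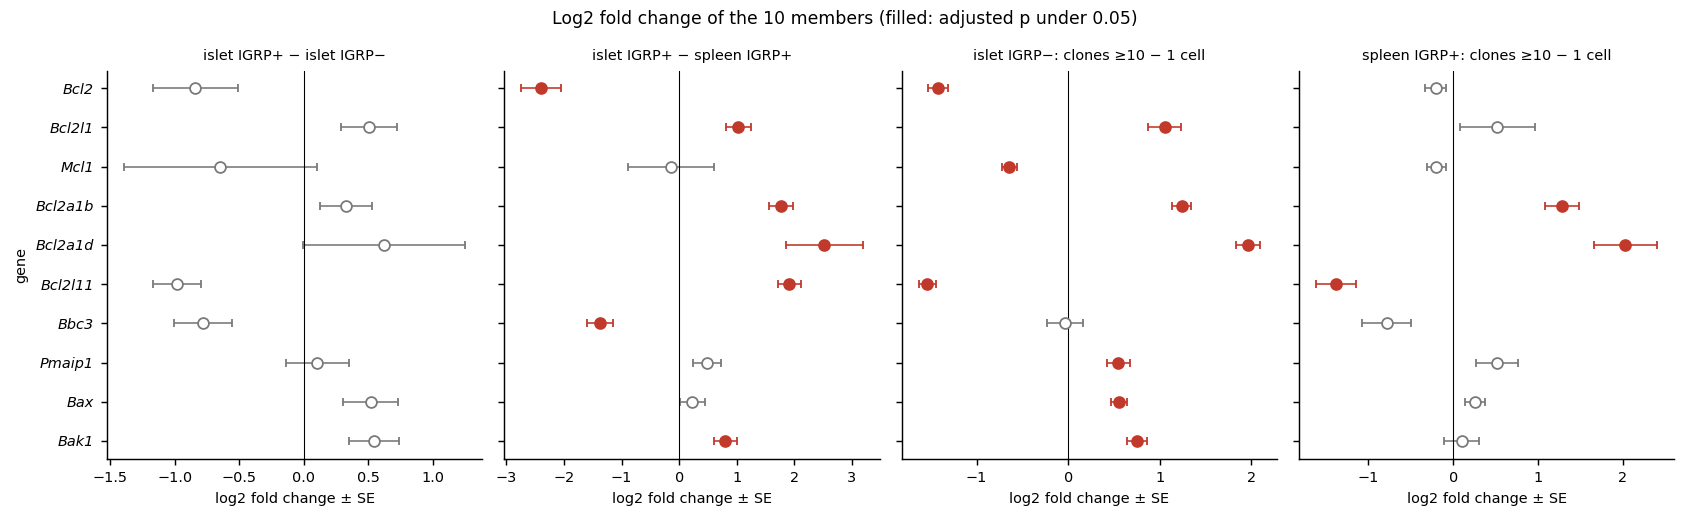
Log2 fold change (horizontal axis) of the 10 members (vertical axis) in 4 contrasts; bars are 1 SE, and filled points have an adjusted p under 0.05 in edgeR's quasi-likelihood test without a round block in the first 2 panels and with a library term in the others. Bcl2 lay below 0 in all 4, by −2.40 against spleen, and Bcl2a1b and Bcl2a1d above 0 in all 4; with library totals Bcl2 in spleen clones turned to 0.0176.

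Detection was read as the share of cells with at least 1 UMI. Of islet IGRP− cells 24.3% and 19.2% had a Bcl2 UMI, of islet IGRP+ cells 16.0% and 13.4%, and of spleen IGRP+ cells 40.2% and 33.4%, although the median spleen cell held fewer UMIs (2590 and 2764.5, against 3793 to 4216.5 in islet libraries). After each cell was thinned to 1000 UMIs, which left out 26 to 100 cells a library, Bcl2 was seen in 6.69% (exact 95% interval 6.09 to 7.34) and 5.47% (5.00 to 5.96) of islet IGRP− cells. The shares were 4.75% (3.61 to 6.13) and 3.86% (2.96 to 4.94) of islet IGRP+ cells, and 19.7% (18.4 to 21.0) and 13.9% (12.5 to 15.4) of spleen IGRP+ cells. Spleen intervals lay apart from all islet intervals, and the interval of islet IGRP+ cells of Round 1 met those of both islet IGRP− libraries. The intervals cover counting error only.

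Bcl2l11 was seen in 13.9% and 13.7% of thinned islet IGRP− cells, 7.05% and 8.49% of islet IGRP+ cells, and 2.14% and 1.77% of spleen IGRP+ cells. These shares were 37.4% and 38.7%, 20.4% and 27.1%, and 5.19% and 5.31% before thinning. As with its level, the groups did not overlap. An A1 UMI of any copy was seen in 21.9% and 29.6% of thinned islet IGRP− cells, 30.1% and 48.7% of islet IGRP+ cells, and 12.8% and 15.9% of spleen cells. Before thinning, A1 was detected in as many as 82.6% of islet IGRP+ cells of Round 2. Bbc3 and Bcl2l1 were seen in 0.679% to 2.02% and 0.927% to 2.19% of thinned cells, the sparsest in every library but spleen of Round 2, where Bcl2l11 was below Bbc3. Mcl1 was at 8.74% to 34.7% of thinned cells, Bax at 12.7% to 21.6%, Pmaip1 at 3.83% to 6.45% and Bak1 at 3.25% to 5.26%. Shares did not keep the order of the levels for each member. Thinned Bax was at 15.7% in islet IGRP+ cells of Round 2, below spleen (18.7% and 18.5%), and thinned Pmaip1 at 4.75% in spleen of Round 1, above the 4.31% of islet IGRP− cells of Round 2. Unthinned Bbc3 shares overlapped between spleen (4.97% and 6.38%) and islet IGRP− cells (5.58% and 5.36%). The authors removed a cluster of pancreatic exocrine cells from their islet data. Here 24 kept islet cells had at least 5% of their UMIs in exocrine markers, and of these 20.8% (exact 95% interval 7.13 to 42.2) had a Bcl2 UMI, 29.2% (12.6 to 51.1) a Bcl2l11 UMI and 91.7% (73.0 to 99.0) a Cd3e UMI. As most carried this T cell transcript, no background share from free RNA was taken from them. With 2 libraries against 2, no exact permutation test can pass the threshold of 0.05, and shares were not tested.

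Islet cells were then split by raw UMIs into cycling cells (2 or more UMIs of Mki67 and Top2a together), Havcr2+Pdcd1+ cells (effector-like by these genes) and Tcf7+Pdcd1+ cells (progenitor-like), with at least 1 UMI for a positive gate. None of the members was used by the gates. Cycling cells made up 5.51% and 4.00% of islet IGRP− cells, 12.0% and 8.70% of islet IGRP+ cells, and 0.369% and 0.741% of spleen IGRP+ cells. No member call between groups changed without cycling cells. In the fits of these classes each library is its own block, so the contrasts are within libraries.

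Tcf7+Pdcd1+ against Havcr2+Pdcd1+ cells gave 1 member higher, Pmaip1, where 11.8% of 9509 genes were higher, and 5 lower, where 12.5% were lower. Pmaip1 was at 58.4 and 63.0 CPM in Tcf7+Pdcd1+ cells of islet IGRP− libraries and 66.2 and 70.6 CPM in those of islet IGRP+ libraries, against 56.8, 56.0, 44.8 and 36.3 CPM in Havcr2+Pdcd1+ cells. All 4 Tcf7+Pdcd1+ sums were above the 4 others, by a log2 fold change of 0.39 ± 0.13 (adjusted p = 0.0332). That call was lost with DESeq2 (adjusted p = 0.0530), library totals (0.0662), gates at 2 UMIs (0.261), no library term (0.151), and without the islet IGRP+ library of Round 1 (0.0991) or Round 2 (0.211).

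Lower in Tcf7+Pdcd1+ cells were Bcl2l1 (−1.16 ± 0.18 on the log2 scale, adjusted p = 2.34e-05), Bcl2a1d (−0.84 ± 0.10, adjusted p = 1.62e-07), Bcl2a1b (−0.55 ± 0.07), Bak1 (−0.49 ± 0.10) and Bax (−0.30 ± 0.07). With no library term only Bcl2l1 passed. Bax (adjusted p = 0.116) and Bak1 (adjusted p = 0.160) did not pass with gates at 2 UMIs, nor Bax without the islet IGRP− library of Round 2 (adjusted p = 0.106). For Bcl2 the log2 fold change was 0.29 ± 0.14 (adjusted p = 0.148). Bcl2l11 gave −0.27 ± 0.14 (adjusted p = 0.174), and passed with no filter on low counts (adjusted p = 0.0488) and without the islet IGRP− library of Round 2 (−0.53, adjusted p = 0.0218). Its sums were 123 and 125 CPM in Tcf7+Pdcd1+ and 133 and 115 CPM in Havcr2+Pdcd1+ cells of islet IGRP− libraries, and 37.2 and 60.2 CPM against 81.2 and 134 CPM in islet IGRP+ libraries. Tcf7+Pdcd1+ sums were thus the lower within both islet IGRP+ libraries and on either side within islet IGRP− libraries, a difference between groups that was not tested.

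In cycling against Havcr2+Pdcd1+ cells, 1 member was higher beside 18.4% of genes and 5 were lower beside 14.2%. Bcl2l11 was at 66.3 and 75.1 CPM in cycling cells of islet IGRP− libraries and 30.3 and 76.0 CPM in those of islet IGRP+ libraries, with a log2 fold change of −0.85 ± 0.15 (adjusted p = 7.87e-05). In each library the cycling sum was the lower. The others that fell were Bcl2a1d (−0.87 ± 0.10), Bcl2l1 (−0.80 ± 0.19; adjusted p = 0.0666 without the islet IGRP− library of Round 1), Bcl2a1b (−0.68 ± 0.07) and Mcl1 (−0.41 ± 0.08). Bbc3 was higher in cycling cells (0.74 ± 0.26, adjusted p = 0.0288), at 18.1 and 18.4 CPM against 15.6 and 12.6 CPM in islet IGRP− libraries. In islet IGRP+ libraries it was at 5.91 and 12.8 CPM against 0 UMIs, which allows up to 4.20 CPM, and 4.99 CPM. Its call was lost with DESeq2 (adjusted p = 0.0746), gates at 2 UMIs (0.245), no library term (0.148) and without the islet IGRP− library of Round 2 (0.0968) or an islet IGRP+ library (0.0557 without Round 1, 0.106 without Round 2). With no library term, 3 members passed, Mcl1 and Bcl2a1d being the others lost (adjusted p = 0.733 and 0.341). Bcl2 gave −0.39 ± 0.16 (adjusted p = 0.0611), and passed with library totals (adjusted p = 0.0275) and without the islet IGRP+ library of Round 1 (adjusted p = 0.0441).

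The islet groups were also compared within a class. Among Tcf7+Pdcd1+ cells 0 of 10 members passed edgeR's test, where 0% of 9316 genes were higher and 0.0107% lower; at unadjusted p under 0.05 there were 1 member, Bcl2l11, and 613 genes, and DESeq2 called 31 genes and 0 members. Bcl2l11 was at 37.2 and 60.2 CPM in islet IGRP+ and 123 and 125 CPM in islet IGRP− cells of this class. The groups did not overlap, and the log2 fold change was −1.27 ± 0.24 (adjusted p = 0.290), or −1.25 ± 0.18 with the round as a block (adjusted p = 2.58e-09) and −1.31 with no filter on low counts (adjusted p = 0.00124). Mcl1 also passed under the block (−0.51 ± 0.16, adjusted p = 0.0222), and unblocked it was −0.46 ± 0.60, or 0.35 without the islet IGRP− library of Round 2. With the block, 0 members were higher and 2 lower, beside 3.39% and 4.73% of genes, and 757 genes passed in place of 1. Unblocked, 103 and 68 genes passed without the islet IGRP− library of Round 1 or Round 2, and 6 and 5 without that of islet IGRP+. For Bcl2l1 the log2 fold change was 0.0168 ± 0.33, which turned to −0.0383 with library totals.

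Among Havcr2+Pdcd1+ cells 0 of 10 members passed, where 0.0126% of 7962 genes were higher and 0.0126% lower; edgeR gave 1 member, Bbc3, and 255 genes at unadjusted p under 0.05, and DESeq2 called 9 genes and 0 members. Bbc3 was at 15.6 and 12.6 CPM in islet IGRP− cells of this class, and at 0 UMIs and 4.99 CPM in islet IGRP+ cells. Both islet IGRP+ sums were lower, by −2.05 ± 0.71 on the log2 scale (adjusted p = 0.976), or −1.98 ± 0.55 with the round as a block (adjusted p = 0.0225). The block gave 157 genes in place of 2, or 0.515% higher and 1.46% lower, with 0 members higher and 1 lower. Unblocked, 27 and 50 genes passed without the islet IGRP− library of Round 1 or Round 2, and 1 and 1 without that of islet IGRP+. Bcl2l11 in this class was at 81.2 and 134 CPM in islet IGRP+ and 133 and 115 CPM in islet IGRP− cells, so the groups overlapped (−0.12 ± 0.26, adjusted p = 0.979; 0.10 without the islet IGRP+ library of Round 1). Whether the Bcl2l11 difference depends on the class was not tested.

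Clone size was read from the TCR libraries, where cells with exactly 1 productive alpha and 1 productive beta chain were joined into clones by both CDR3 nucleotide sequences within a library. Such a pair was held by 2992 and 5483 islet IGRP− cells, 673 and 1191 islet IGRP+ cells, and 1660 and 1668 spleen IGRP+ cells. Clones of 1 cell made up 1389 and 2959 of these in islet IGRP− libraries, 252 and 162 in spleen, and 12 and 14 in islet IGRP+ libraries, too few to sum. Clones of 10 or more held 887 and 1460, 1343 and 1396, and 579 and 1085 cells. In islet IGRP− libraries, 0.792% and 0.608% of 1-cell clones were Havcr2+Pdcd1+ and 1.51% and 0.912% cycling, against 7.10% and 10.2%, and 12.1% and 10.8%, of cells in clones of 10 or more, so clone size goes with the class of the cell.

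In islet IGRP− cells, clones of 10 or more against 1-cell clones gave 6 members higher, where 21.1% of 10940 genes were higher, and 3 lower, where 19% were lower. Bcl2l11 was at 191 and 193 CPM in 1-cell clones, 115 and 120 CPM in clones of 2 to 9 cells, and 69.4 and 78.4 CPM in clones of 10 or more. Each step was down in both libraries, with a log2 fold change of −1.54 ± 0.09 (adjusted p = 2.72e-14) from the smallest to the largest class. Bcl2 was at 95.8 and 76.3 CPM, 45.5 and 30.9 CPM, and 43.4 and 29.6 CPM in the same order. Most of its fall lay between 1 cell and 2 to 9 cells, and the whole was −1.42 ± 0.11 (adjusted p = 7.22e-12).

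A1 rose with clone size in these cells. Bcl2a1b was at 165 and 164 CPM in 1-cell clones, 371 and 476 CPM in clones of 2 to 9, and 366 and 510 CPM in clones of 10 or more (log2 fold change 1.24 ± 0.11, adjusted p = 7.20e-11). Bcl2a1d was at 34.5 and 76.7 CPM, 114 and 324 CPM, and 111 and 405 CPM (1.96 ± 0.13, adjusted p = 1.83e-13). For both copies the 1-cell clones were the lowest in each library, while the larger classes of Round 1 were level. Mcl1 fell by −0.64 ± 0.08 on the log2 scale (adjusted p = 2.50e-07), from 164 and 482 CPM to 122 and 338 CPM.

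Bcl2l1 (1.05 ± 0.18, adjusted p = 1.45e-05), Bak1 (0.75 ± 0.11, adjusted p = 2.15e-06), Bax (0.56 ± 0.09, adjusted p = 6.55e-06) and Pmaip1 (0.55 ± 0.12, adjusted p = 0.000679) were higher in large islet IGRP− clones on the log2 scale. Bbc3 gave −0.0356 ± 0.20 (adjusted p = 0.911), and 0.13 with library totals. With no library term 4 members passed, and those lost were Mcl1 (adjusted p = 0.719), Bcl2a1d (0.100), Bax (0.219), Bak1 (0.0626) and Pmaip1 (0.374). Pmaip1 did not pass without the islet IGRP− library of Round 2 (adjusted p = 0.0749), when 2156 genes passed in place of 4391. Library totals moved the median of all genes by 0.16 log2 and gave 3412 genes higher and 1389 lower in place of 2310 and 2081.

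In spleen IGRP+ cells the same contrast gave 2 members higher, beside 8.34% of genes, and 1 lower, beside 7.21%. Bcl2l11 was at 26.1 and 45.5 CPM in 1-cell clones, 33.7 and 21.6 CPM in clones of 2 to 9 (6 and 7 UMIs), and 15.1 and 15.7 CPM in clones of 10 or more. The largest clones were below 1-cell clones in both libraries (log2 fold change −1.38 ± 0.24, adjusted p = 6.56e-05). Bcl2a1b was at 30.1 and 69.8 CPM, 89.8 and 86.3 CPM, and 133 and 133 CPM (1.29 ± 0.20, adjusted p = 1.49e-05), and Bcl2a1d at 3.01 and 19.7 CPM, 11.2 and 64.7 CPM, and 38.4 and 58.0 CPM (2.03 ± 0.38, adjusted p = 0.000176). In Round 1 the first 2 of these Bcl2a1d values rest on 3 and 2 UMIs, so their order is not set. Clones of 1 cell were below clones of 10 or more in both copies, but without the spleen library of Round 1 neither passed (0.78, adjusted p = 0.0968, and 1.40, adjusted p = 0.0792). The count of genes was then 666, and 986 without that of Round 2, in place of 1701. With no library term the Bcl2a1d call was lost (adjusted p = 0.326).

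Bcl2 in spleen was at 195 and 183 CPM in 1-cell clones and 217 and 165 CPM in clones of 10 or more. It was up in one round and down in the other, with a log2 fold change of −0.21 ± 0.12 (adjusted p = 0.290) that turned to 0.0176 with library totals. Mcl1 likewise gave −0.20 ± 0.11 (adjusted p = 0.269), and 0.00562 with library totals. Bbc3 was at 32.1 and 30.3 CPM in 1-cell and 18.1 and 25.5 CPM in the largest clones (−0.79 ± 0.29, adjusted p = 0.0655). It passed with DESeq2's size factors (adjusted p = 0.0433), no filter on low counts (0.0354), clones sized over the round (0.0323), the chain of most UMIs (0.0310), a boundary at 5 cells (0.0235), and without any 1 of the islet libraries (0.0268 to 0.0454). Bax (0.26 ± 0.12, adjusted p = 0.155) and Pmaip1 (0.52 ± 0.25, adjusted p = 0.185) passed only with library totals (0.48, adjusted p = 0.00552, and 0.75, adjusted p = 0.0398), a scaling that moved the median of all genes by 0.22 log2. It gave 1805 genes higher and 540 lower, and DESeq2's size factors 718 and 941, in place of 912 and 789.

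The difference between these contrasts was tested directly, as the spleen effect minus the islet IGRP− effect. It passed for Bcl2 (1.22 ± 0.16 on the log2 scale, adjusted p = 4.81e-06) and Mcl1 (0.44 ± 0.14, adjusted p = 0.0446), 2 members higher beside 4.61% of genes and 0 lower beside 3.18%. In all 852 genes passed, and refits gave 456 genes without the islet IGRP− library of Round 2, and 234 and 397 without the spleen library of Round 1 or Round 2. DESeq2's size factors gave 409 genes higher and 491 lower in place of 504 and 348. Bcl2 thus fell with clone size in islet IGRP− cells by more than in spleen, a call lost with no library term (adjusted p = 0.568). For Mcl1 it was lost with DESeq2's size factors (adjusted p = 0.0970), DESeq2's test (0.205), no library term (0.991), the chain of most UMIs (0.0520), the largest clones left out (0.0735), and without either islet IGRP− library (0.207 and 0.414) or either spleen library (0.116 and 0.396). Bcl2l11 (0.16 ± 0.25, adjusted p = 0.803), Bcl2a1b (0.0492 ± 0.24, adjusted p = 0.949) and Bcl2a1d (0.0670 ± 0.45, adjusted p = 0.969) did not pass; with DESeq2's size factors both A1 copies turned (−0.0202 and −0.00314), and Pmaip1 (−0.0298 ± 0.29) turned to 0.0335 with library totals. Bak1 (−0.65 ± 0.24, adjusted p = 0.0971) passed with the chain of most UMIs kept (adjusted p = 0.0312). The contrast sets a tetramer-negative islet group beside a tetramer-positive spleen group, so tissue and specificity cannot be told apart.

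In islet IGRP+ cells, clones of 10 or more were set against clones of 2 to 9 cells. By edgeR 0 of 10 members passed, where 0.064% of genes were higher and 0.137% lower; unadjusted p was under 0.05 for 1 member, Bak1, and 859 genes, and DESeq2 called 21 genes and 0 members. Bcl2l11 was at 51.1 and 78.4 CPM in clones of 2 to 9 and 51.1 and 83.9 CPM in clones of 10 or more (0.11 ± 0.19, adjusted p = 0.943). The count of 22 genes became 72 and 73 without an islet IGRP− library, 5 and 116 without the islet IGRP+ library of Round 1 or Round 2, and 10 without either spleen library. The smaller class held 82 and 92 cells, which limits what this contrast can show.

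**Figure D3:**
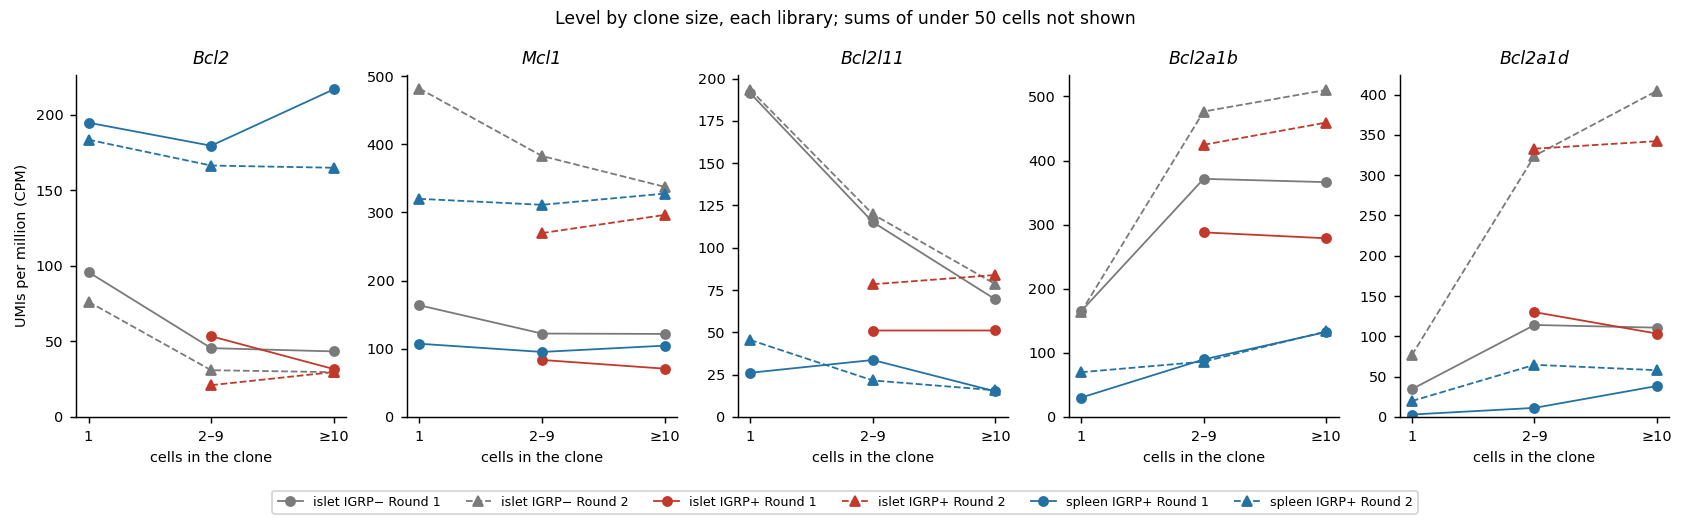
Level in CPM (vertical axis) of 5 members by the number of cells in the clone (horizontal axis), 1 line per library; sums of under 50 cells are not shown, so islet IGRP+ lines start at 2 to 9 cells. In islet IGRP− cells Bcl2l11 fell from 191 and 193 CPM to 69.4 and 78.4 CPM and Bcl2a1b rose, while spleen Bcl2 ended at 217 and 165 CPM.

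Other genes of the pathway were followed in 8 lists. In islet IGRP+ against spleen IGRP+ cells, where 13.7% of all genes were higher and 12.9% lower, 1 of 9 tested genes of the other Bcl2 family rose (Bcl2l13, 0.69 on the log2 scale) and 0 fell. Of 11 caspase and mitochondrial death genes 2 rose (Cycs 1.44, Vdac2 0.77) and 1 fell (Casp9 −1.13). With 1 further gene of this list that is not reported, 3 of 12 rose and 1 fell. With the round as a block these 12 gave 5 higher and 2 lower. Of 8 inhibitor of apoptosis and FLIP genes 2 rose (Birc5, a cell cycle gene, by 5.82, and Birc3 by 1.22). Of 9 death receptor genes 3 rose (Tnfrsf1b 2.36, Fas 1.13, Tnfrsf1a 0.75) and 1 fell (Tnfrsf10b −1.09). Survival cytokine genes split 5 up and 3 down of 15, with the interleukin 7 receptor Il7r at −4.72 and Il2ra at 2.23. Of 12 p53 and FOXO genes 2 rose (Cdkn1a, and Gadd45b by 1.30) and 1 fell (Txnip −1.22). Mean Cdkn1a was 57.3 CPM in islet IGRP+ and 7.20 CPM in spleen IGRP+ cells. NF-kB genes rose in 5 of 10 (Nfkb2 2.21, Relb 1.56) and fell in 0, and their median was 1.02. Of 14 genes known to answer to tissue dissociation, 1 rose (Atf3 3.16) and 5 fell (among them Hspa1b −2.29, Jun −1.98 and Fos −1.30), with a median of −0.75; their part in the member differences between tissues was not tested. With the round as a block, where 28% of all genes were higher and 27.1% lower, the counts higher and lower were 8 and 1 for NF-kB, 7 and 5 for survival cytokine, 4 and 2 for caspase and mitochondrial death, 4 and 2 for p53 and FOXO, 4 and 1 for other Bcl2 family, 3 and 3 for death receptor, 3 and 1 for inhibitor of apoptosis and FLIP, and 2 and 9 for dissociation genes.

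Between the islet groups the fit without a round block had 3 genes of these lists past the threshold, Tnfrsf10b (−2.91), Il7r (−3.74) and Socs1 (−1.23), all lower in islet IGRP+ cells. With the round as a block, where 14.4% of all genes were higher and 16.1% lower, 5 of 11 caspase and mitochondrial death genes were higher and 0 lower, 1 of 15 survival cytokine genes higher and 7 lower, 3 of 9 death receptor genes higher and 3 lower, 1 of 8 inhibitor of apoptosis and FLIP genes higher and 3 lower, and 2 of 9 of the other Bcl2 family higher and 0 lower. The block gave 0 higher and 5 lower of 12 p53 and FOXO genes, 0 and 3 of 10 NF-kB genes, and 1 and 4 of 14 dissociation genes. In clones of 10 or more against 1-cell clones, Il7r was −3.19 in islet IGRP− and −0.82 in spleen IGRP+ cells. Its list of 15 split both ways, with 5 higher and 8 lower in islet IGRP− cells, beside 21.1% and 19% of all genes. In spleen IGRP+ cells 1 was higher and 3 lower, beside 8.34% and 7.21%. Of 9 death receptor genes, 6 were higher and 2 lower in islet IGRP− cells, and 4 and 1 in spleen IGRP+ cells. Bcl2a1a, the third A1 copy, was at 0 UMIs in 1-cell clones of all 4 libraries, so no fold is given.

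By the GENCODE annotation of build GRCm38, Bcl2 lies at chr1:106538178-106714274 and Bcl2l1 at chr2:152780668-152831728, both on the minus strand. Bcl2l11 lies at chr2:128126038-128162547 and Mcl1 at chr3:95658788-95663176, on the plus strand. Bax (chr7:45461697-45466898) and Bbc3 (chr7:16308393-16318205) share a chromosome, and Bak1 lies at chr17:27019810-27029009. The A1 copies form a cluster with Bcl2a1d at chr9:88723285-88731914 on the minus strand, Bcl2a1a at chr9:88956900-88962419 and Bcl2a1b at chr9:89199209-89207827, both on the plus strand. Of the 90-base windows of its annotated transcript, 36.1% of Bcl2a1b, 61.6% of Bcl2a1d and 47.0% of Bcl2a1a also occur in another copy, and 14.2%, 30.3% and 28.2% of 150-base windows. Reads from such stretches cannot be assigned to 1 copy, and the sum of copies may miss them as well.

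Bcl2a1b and Bcl2a1d moved in the same direction in each contrast where either passed, and their promoters are nearly the same, at 96.5% identity over 256 aligned columns with 3 mismatches and 6 gap columns. The stretches upstream of their annotated starts are shown because the copies were measured apart although they share this sequence; they were read from RefSeq on GRCm38.p6, 5′ to 3′ on the strand of the gene. Bcl2a1b is chr9:89199023-89199164 on the plus strand and Bcl2a1d is chr9:88731915-88732050 on the minus strand. Capitals mark bases that differ or have no partner in the other copy.
Bcl2a1b: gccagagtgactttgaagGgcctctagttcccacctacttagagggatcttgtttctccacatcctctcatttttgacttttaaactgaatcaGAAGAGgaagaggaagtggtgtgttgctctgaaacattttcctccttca
Bcl2a1d: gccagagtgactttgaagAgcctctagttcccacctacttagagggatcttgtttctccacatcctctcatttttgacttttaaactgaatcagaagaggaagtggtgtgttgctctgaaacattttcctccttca

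In RefSeq promoter windows of 300 bases, from 250 before the start, 7 motifs chosen after the sequences had been looked at were searched on both strands in 32851 windows, 15 of them of 10 genes (the members without Pmaip1, which was not used here, and Bcl2a1a). The FOXO motif GTAAACA was in 3.65% of all windows and in those of Bcl2l11 and Bbc3. The AP-1 form TGANTCA was in 7.81% of all windows and in those of Bcl2a1a, Bcl2a1b and Bcl2a1d, within the stretch printed for the latter pair, and TGACTCA, which TGANTCA includes, in 5.20% and in 0 of the 15. The 2 stricter of 3 NF-kB forms, which begin with 3 Gs (1.63% and 5.56%), were each in windows of Bcl2l1, Mcl1 and Bbc3, and GGNNNTTCC (18.5%), which includes both, in 5 windows of Bcl2l1, Mcl1, Bbc3 and Bak1. The STAT motif TTCNNNGAA was in 8.30% of all windows and in 0 of the 15. A match describes these letters only, and says nothing of binding.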

How the data were processed

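UMI counts per gene and cell were deposited as made by the authors with Cell Ranger (version 5.0.1 per the file headers) on the mm10 reference from 10x 5′ libraries, with T cell receptor contig tables for the same barcodes. No unit other than counts was used, and no normalized value of the authors. Counts of kept cells were summed per library, or per library and class of at least 50 cells. They were tested with edgeR 4.0.16's quasi-likelihood test in R 4.3.3 with TMM scaling and filterByExpr, and p-values were adjusted by Benjamini-Hochberg over all genes tested, with a threshold of 0.05. Fits between groups held all 6 libraries, fits within a class the 4 islet libraries, and fits of classes and clone sizes had the library as a block. An SE is the log2 fold change divided by the square root of F. CPM are a gene's UMIs scaled by all UMIs of the sum, computed from the deposited counts. DESeq2 1.42.0, other scalings, filters, gates and clone rules, and each library left out were alternatives. Where a library left out leaves 1 in its group, that one is assumed to vary like the others. The steps were tested on simulated counts that held no difference between rounds. That test cannot show whether a fit with or without a block suits these data better.

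Replicate numbers in the labels name the round, whose islets and spleens came from the same mice, so they pair the libraries. Deviations from the group means correlated within rounds across 11277 genes at r = 0.694 between the islet groups, 0.717 between islet IGRP− and spleen IGRP+ libraries, and 0.630 between islet IGRP+ and spleen IGRP+ libraries. Genes are not independent replicates. Doublets were limited by the gene number alone, and without cells that had over 1 productive beta chain no member call between groups changed.

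The members, lists, gates and tests were chosen with earlier results of these data known. All members are named. Of each list, up to 4 genes a comparison with the largest absolute log2 fold change among those past the threshold could be named. Sequences are from RefSeq and gene positions from GENCODE. Python 3.11.15 with numpy 2.4.6, scipy 1.17.1 and pandas 2.3.3 was used for sums and intervals. Some results of the planned analysis are not reported here, among them 1 contrast of cell classes and 1 gene of a list, whose counts are over the other 11 genes.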

Additional observations from a re-analysis of the deposited data

Results flagged for a closer look

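The effect of clone size, in clones of 10 or more against 1-cell clones, differed between spleen IGRP+ and islet IGRP− cells by the test of the difference itself (edgeR's quasi-likelihood test) in 17 of the named genes, of which each list gives at most 4. Of all genes tested 4.61% were higher and 3.18% lower. The counts past the threshold were 2 of 10 members, 2 of 9 death receptor, 5 of 15 survival cytokine, 2 of 10 NF-kB and 7 of 14 dissociation genes, all higher, and 1 higher and 2 lower of 12 p53 and FOXO genes. As spleen effect minus islet effect on the log2 scale, it was 1.22 for Bcl2 and 0.44 for Mcl1 among the members. Of the death receptor list, Fasl gave 3.09 and Tnfrsf1b 1.40. Among survival cytokine genes, Il7r gave 2.38, Pim1 0.81, Jak1 0.62 and Pim2 0.60. Of the p53 and FOXO list, Txnip gave 0.82, Foxo1 −0.81 and Trp53 −0.58, and of the NF-kB list, Nfkbia gave 0.72 and Tnfaip3 0.43. Among dissociation and immediate early genes, Ier2 gave 1.42, Ier3 1.20, Junb 0.80 and Hspa1b 0.75.

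In 3 patterns the sign of a log2 ratio differed between groups, and these differences were not tested. From clones of 2 to 9 to clones of 10 or more cells, the log2 ratio of Bcl2l11 CPM was −0.73 and −0.61 in the islet IGRP− libraries and 9.77e-05 and 0.0975 in the islet IGRP+ libraries. For Mcl1 the same ratio was −0.00651 and −0.181 in the islet IGRP− libraries and 0.133 and 0.0742 in the spleen IGRP+ libraries. From Havcr2+Pdcd1+ to cycling cells, that of Bak1 was 0.113 and 0.164 in the islet IGRP− libraries and −0.102 and −0.208 in the islet IGRP+ libraries. Several of these values lie near 0, so their sign is not set.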

How the results depend on the processing

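Of 1310 alternative values for the members, 1160 kept their direction and side of the threshold, 54 were no longer past it, 31 came past it and 65 turned. With list genes, counts and detection there were 3662 values, of which 2998, 409, 60 and 66 fell in these classes. Of 132 detection shares, taken at 1500 UMIs or without thinning, 129 moved. They lay outside the exact 95% interval of the same library's share at 1000 UMIs, which covers counting error only. More UMIs per cell raise such a share, so this move says nothing of differences between replicates. No member call between groups changed without cells marked by exocrine, myeloid, B cell or Cd4 UMIs, cells with over 1 beta chain or cycling cells. The same held with no upper limit on genes, or with only the 2 groups in the fit. Library totals, and the blocked sum of A1 copies, were chosen after the data had been seen. For the changes below the cause was not tested.

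With the round as a replicate block, genes past the threshold went from 134 to 3442 between the islet groups, from 3004 to 6215 for islet IGRP+ against spleen IGRP+, from 1 to 757 within Tcf7+Pdcd1+ and from 2 to 157 within Havcr2+Pdcd1+ cells. Members called were 8 between the islet groups, 2 within Tcf7+Pdcd1+ and 1 within Havcr2+Pdcd1+ cells. The block changed no other member call than those given with the results.

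Without the block for the library (no library term), genes past the threshold were 669 for Tcf7+Pdcd1+ and 1208 for cycling against Havcr2+Pdcd1+ cells, 1095 for clone size in islet IGRP−, 545 in spleen and 0 in islet IGRP+ cells by edgeR, and 29 for the difference of clone-size effects. Members called were 1, 3, 4 and 0 for Tcf7+Pdcd1+ cells, cycling cells, islet IGRP− clones and the difference. Bbc3 turned to 0.0264 in Tcf7+Pdcd1+ cells and Bcl2a1d to −0.00325 in the difference.

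DESeq2's test gave 574 genes and 1 member between the islet groups, 31 genes within Tcf7+Pdcd1+ and 9 within Havcr2+Pdcd1+ cells, and 1 member in the difference of clone-size effects. There Bcl2a1b was −0.0140, and Bbc3 in islet IGRP+ clones was −0.0145. DESeq2's size factors in edgeR gave 1 member in the difference, with Bcl2a1b at −0.0202 and Bcl2a1d at −0.00314.

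With no filter on low counts, 711 genes and 1 member passed between the islet groups, 186 genes and 1 member within Tcf7+Pdcd1+, 68 genes within Havcr2+Pdcd1+ cells and 88 in islet IGRP+ clones. Bcl2l1 turned to −0.0229 within Tcf7+Pdcd1+ cells, Bcl2a1d to 0.00314 in islet IGRP+ clones and Pmaip1 to 0.0110 in the difference. With only the 2 groups in the fit, 24 genes passed between the islet groups.

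With library totals, 53 genes passed between the islet groups and 0 within Tcf7+Pdcd1+ or Havcr2+Pdcd1+ cells by edgeR. In spleen clones 5 members passed, with Bcl2 at 0.0176 and Mcl1 at 0.00562. Bcl2l1 within Tcf7+Pdcd1+ cells was −0.0383, Bbc3 in islet IGRP− clones 0.13 and Pmaip1 in the difference 0.0335.

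Gates at 2 UMIs left out the islet IGRP+ sums of Round 1 for Havcr2+Pdcd1+ (47 cells) and Tcf7+Pdcd1+ (41 cells). Genes past the threshold were 1089 for Tcf7+Pdcd1+ and 1920 for cycling against Havcr2+Pdcd1+ cells. Members were 3 for Tcf7+Pdcd1+ cells, in which Birc5 turned to 0.18, and Pmaip1 in cycling cells turned to 0.15.

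With clones sized over the round, 115 genes passed in islet IGRP+ clones, with Bcl2 at 0.32 and Bcl2l11 at −0.00966, and Pmaip1 in the difference was 0.0345. With the chain of most UMIs kept, 35 genes passed there, and Pmaip1 in the difference was 0.0298. Without the largest clones, 1 member passed in the difference, where Bcl2a1d was −0.0366, and Bcl2a1d in islet IGRP+ clones was 0.0339. A boundary at 5 cells left too few cells for the islet IGRP+ contrast. The sum of A1 copies was 0.0423 within Tcf7+Pdcd1+ cells and 0.0202 within Havcr2+Pdcd1+ cells, where Bcl2a1b alone was below 0, and 0.0502 in islet IGRP+ clones, where Bcl2a1d alone was.

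With each library left out in turn, genes past the threshold ranged from 0 (edgeR) to 30 between the islet groups, 892 to 2050 for islet IGRP+ against spleen IGRP+ (3 to 7 members), 5 to 103 within Tcf7+Pdcd1+, 1 to 50 within Havcr2+Pdcd1+ cells, 2156 to 4611 for islet IGRP− clones, 666 to 1832 for spleen clones (1 to 4 members), 5 to 116 for islet IGRP+ clones and 234 to 1030 for the difference (1 to 2 members). Refits between groups and within a class had no term for the round. Leaving out a library of a compared group there set 1 round against both. Log2 fold changes between the islet groups ranged from −1.69 to 0.24 for Mcl1, −0.30 to 1.55 for Bcl2a1d and −0.11 to 0.31 for Pmaip1. Against spleen IGRP+ cells they ranged from −1.19 to 0.71 for Mcl1 and −0.00890 to 0.43 for Bax. Within Tcf7+Pdcd1+ cells they ranged from −0.39 to 0.24 for Bcl2l1, −1.52 to 0.35 for Mcl1, −0.26 to 0.14 for Bcl2a1b and −0.73 to 1.07 for Bcl2a1d. Within Havcr2+Pdcd1+ cells the ranges were −0.53 to 0.0367 for Bcl2, −0.58 to 0.14 for Bcl2l1, −0.42 to 0.10 for Bcl2l11, −1.14 to 0.31 for Mcl1, −0.24 to 0.0879 for Bcl2a1b and −0.67 to 1.01 for Bcl2a1d.

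In cycling cells Pmaip1 ranged from −0.0667 to 0.0572, and in spleen clones Bak1 from −0.00307 to 0.23. In islet IGRP+ clones the ranges were −0.50 to 0.51 for Bcl2, −0.16 to 1.12 for Bcl2l1, −0.0776 to 0.0526 for Bcl2a1d, −0.21 to 0.17 for Bax, −0.70 to 0.87 for Bbc3 and −0.34 to 0.18 for Pmaip1. In the difference they were −0.14 to 0.48 for Bcl2l11, −0.46 to 0.63 for Bcl2a1b, −0.56 to 1.43 for Bcl2a1d and −0.51 to 0.36 for Pmaip1. Depth limits Bbc3 and Bcl2l1 most, the members with the fewest UMIs over all libraries.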
